A study of Mus musculus with 14 samples.

Results

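The 94 genes described here encode the subunits of the mitochondrial respiratory chain and ATP synthase, 81 of them in the nucleus and 13 in the mitochondrial genome. They were taken by symbol from the genes listed in both deposited expression tables: Nduf a, b, c, s and v genes, Sdha to Sdhd, Uqcr genes, Cox4 to Cox8 genes, Atp5 genes, Cyc1, Cycs and the protein-coding mt- genes. The tables shared 12655 genes, out of 13406 in one and 14563 in the other. By the same rule Cox6a2, a heart and muscle isoform of cytochrome c oxidase found in 1 table only, and pseudogenes stayed out. Atp5l2 is kept because the tables list it under that symbol, although GENCODE M21 annotates it as a pseudogene, and Atp5s, Atp5sl and Cox7a2l matched the symbols although they are not core subunits.

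All 14 libraries came from mouse acute myeloid leukaemia cells of C57/BL6 background, obtained from the spleens of terminally sick mice. The leukaemias had been made by transplanting irradiated congenic mice with foetal liver cells carrying 2 retroviral vectors, so that every group, controls included, carried Tet-Off MLL-AF9 with a dsRED reporter, oncogenic NRASG12D and the Tet-Off activator. In the first experiment, cells were kept 4 days in doxycycline in culture, which shuts the fusion gene off, and set against untreated cells (n = 4 each), in pairs that share a label in their titles (TRIMA2 in pairs 1 to 3, TRIMA1 in pair 4). In the second, cells received in culture a retrovirus for Id2-GFP, or one for control-GFP, and were sorted for GFP 2 days later (n = 3 each), without doxycycline. The titles of doxycycline replicates 1, 2 and 4 also end in R, while those of doxycycline replicate 3 and of all untreated libraries do not. The part of this mark in the values was not tested. No group received doxycycline without a regulated MLL-AF9 gene. Loss of the fusion and effects of the drug itself, which is known to inhibit mitochondrial protein synthesis, cannot be told apart.

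The listed genes held 17922644 to 25959766 reads per library in the first experiment and 14051150 to 14948487 in the second. Mll1, whose coding sequence the fusion shares, had 114 to 144 CPM (read counts scaled by the authors to a common library size) in doxycycline against 1998 to 6369 CPM in untreated libraries, and Id2 had 952 to 1631 CPM in Id2-GFP against 25.8 to 51.5 CPM in control-GFP libraries. Of 8 haematopoietic and myeloid markers 7 were listed in both tables, no T cell or B cell marker of 7 was listed, and of 6 erythroid markers 2 were listed in the transduction table only.

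The respiratory chain passes electrons from NADH (complex I) and succinate (complex II) through ubiquinone to complex III, cytochrome c and complex IV, and the proton gradient this builds drives ATP synthase. Complexes I, III, IV and ATP synthase each mix subunits from the nuclear and the mitochondrial genome, while complex II is nuclear only. Acute myeloid leukaemia cells are known to rely on mitochondrial respiration, and the nuclear and mitochondrial messages are made by separate polymerases, so both genomes are given side by side.

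The first comparison asks how these genes change when MLL-AF9 is shut off with doxycycline. Of the 13 mitochondrial genes, 12 rose and none fell, while of the 81 nuclear genes 6 rose, 33 fell and 42 did not pass (limma on the deposited log2 CPM values, two-sided, Benjamini-Hochberg adjusted p under 0.05 over 13406 genes). Over all genes of the table, 65.1% were called, with 31.3% that rose and 33.8% that fell. The mitochondrial genes rose in 92.3% of cases, against 31.3% of all genes. The nuclear genes fell in 40.7% of cases, against 33.8% of all genes, and rose in 7.41%, against 31.3%. For 12 mitochondrial and 5 nuclear genes every doxycycline library was above every untreated one, as for 28.9% of all genes, and for 27 nuclear genes every one was below, as for 31.1% of all genes. The median log2 change was 0.52 for the mitochondrial and -0.08 for the nuclear genes, beside -0.03 for all genes of the table. The mitochondrial median was 0.28 with library totals as the scale and -0.06 with quantile normalization, where the direction turned, and the nuclear median stayed negative, at -0.32 and -0.18. The median of all genes was -0.27 with library totals and -0.10 with quantile normalization, so the mitochondrial median lay 0.041 above that of all genes under the last of these. The counts moved with them. With library totals 71 nuclear genes fell and 0 rose, while 9 mitochondrial genes rose and 1, mt-Nd1, fell. Over all 13406 genes, 6912 then fell and 2702 rose, against 4535 and 4198 with the authors' scaling. With quantile normalization 4 mitochondrial genes rose and 3 fell (mt-Nd1, mt-Co1 and mt-Atp6), while 5227 of all genes fell and 3682 rose. Without replicate 3, that is, without both libraries of that pair, 20 nuclear genes fell, and 3829 of all genes.

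The balance between the genomes was also read within each library. The shares below are of the reads on all listed genes, and so use the library total as their scale. Reads on the mitochondrial genes made up 3.29, 2.97, 3.16 and 3.32% of doxycycline libraries, against 2.71, 2.67, 2.37 and 2.58% of untreated libraries. Reads on the nuclear genes made up 0.715, 0.760, 0.717 and 0.684% of doxycycline libraries, against 0.950, 0.899, 0.945 and 0.917% of untreated libraries. The groups did not overlap on either share. On this scale the median log2 change of all genes was itself -0.27, beside -0.32 for the nuclear and 0.28 for the mitochondrial genes. The lower nuclear share thus lay near a shift of the whole table. The ratio of the first share to the second needs no scale. There were 4.60, 3.91, 4.41 and 4.86 mitochondrial reads per nuclear read in doxycycline libraries, against 2.85, 2.97, 2.51 and 2.82 in untreated libraries, a mean of 4.44 ± 0.40 in doxycycline and 2.79 ± 0.19 in untreated (SD, n = 4 each). Every doxycycline library exceeded every untreated one. The 10 most abundant genes of each library held 6.57 to 9.15% of doxycycline reads and 3.53 to 4.07% of untreated reads, and genes for ribosomal proteins held 1.87 to 2.64% in doxycycline and 2.95 to 3.36% in untreated libraries. The 7 haematopoietic and myeloid markers summed to 4490 to 5173 CPM in doxycycline and 2395 to 2807 CPM in untreated libraries, and Pecam1, the one listed of 4 endothelial and stromal markers, had 63.9 to 90.1 CPM in doxycycline and 249 to 254 CPM in untreated libraries. The part of these values in the shares was not tested. In RNA from bulk cells, fewer cells of a type and less RNA per cell cannot be told apart.

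**Figure D1:**
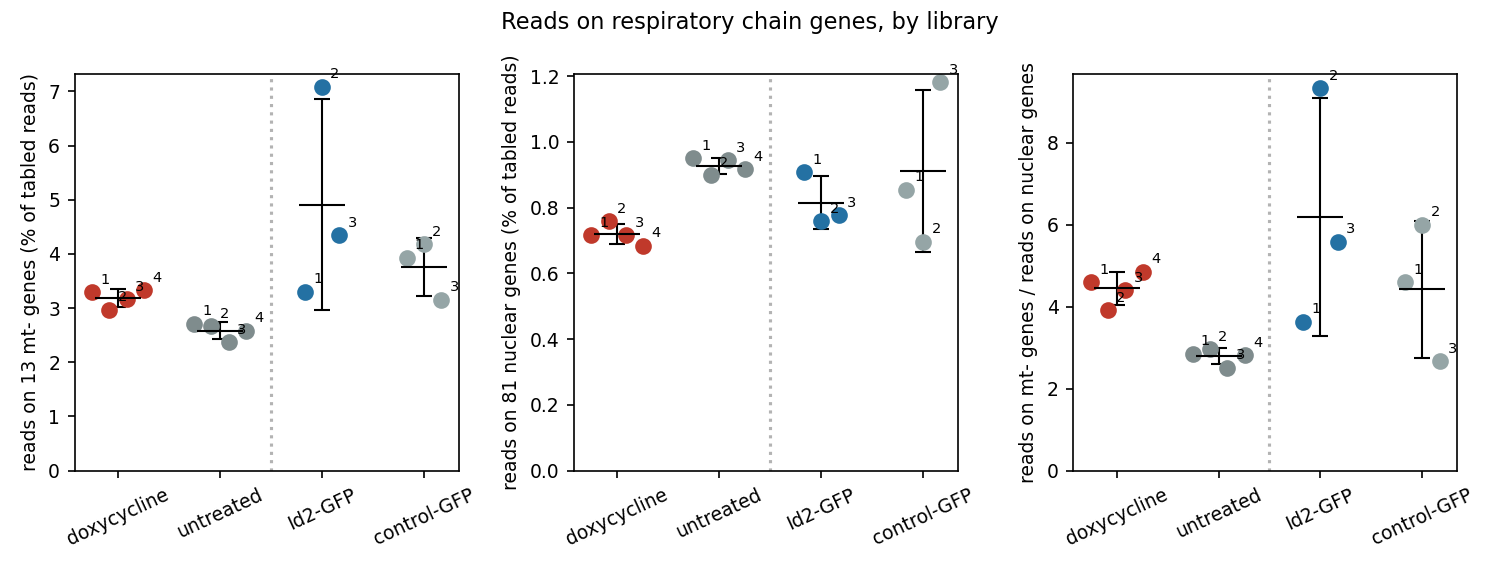
Percent of reads on the 13 mitochondrial genes (left), on the 81 nuclear genes (middle) and the ratio of the first to the second (right) in each library. Points are libraries with their replicate numbers, and bars are mean and SD. Doxycycline libraries sit at 3.91 to 4.86 mitochondrial reads per nuclear read and untreated libraries at 2.51 to 2.97, while the Id2-GFP and control-GFP libraries overlap.

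The mitochondrial genome lists 13 protein genes, which were read here at their GRCm38 positions on the mitochondrial chromosome (MT). Several neighbours overlap, so reads there cannot be assigned to either gene by position alone. The longest overlap, where the mt-Atp8 and mt-Atp6 reading frames share 43 bases at MT:7927-7969 on the + strand, is shown with the mt-Atp6 start codon and the mt-Atp8 stop codon in capitals, because the changes of the overlapping pair are counted as 2 genes although they share this stretch.
mt-Atp8 and mt-Atp6 overlap: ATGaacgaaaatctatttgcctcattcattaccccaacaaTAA
The mt-Nd4l and mt-Nd4 frames share 7 bases at MT:10167-10173, and mt-Nd5 overlaps mt-Nd6, which lies on the other strand, by 14 bases.

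Among the mitochondrial genes of complex I, mt-Nd3 changed most. It had 369, 300.2, 313 and 321 CPM in doxycycline libraries, against 174, 168, 153 and 168 CPM in untreated libraries. Every doxycycline library lay above every untreated one, and the log2 change was 0.97 ± 0.07 (SE; adjusted p = 2.4e-06, limma). mt-Nd1, the first gene of the order, did not pass the test. It had 1723, 1458, 1568 and 1704 CPM in doxycycline libraries, against 1806, 1598, 1358 and 1683 CPM in untreated libraries. The groups overlapped, with a log2 change of 0.01 ± 0.10 and an adjusted p of 0.96 (limma). This result depended on the scaling. By limma mt-Nd1 was called as fallen with library totals (-0.23, adjusted p = 0.042) and with quantile normalization (-0.57, adjusted p = 0.00032). It was not called as fallen with the mitochondrial genes left out of the totals. The reads of mt-Nd3 per read of mt-Nd1 were 0.189 to 0.214 in doxycycline libraries and 0.0963 to 0.113 in untreated libraries, so the mitochondrial genes did not change by the same factor.

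The other mitochondrial genes of complex I lay between them. mt-Nd2 had 1240.5, 1042, 1095 and 1159 CPM in doxycycline libraries, against 881, 794, 646 and 813 CPM in untreated libraries. mt-Nd4 had 1883, 1503, 1734 and 1957 CPM in doxycycline libraries, against 1332, 1238, 1057 and 1269 CPM in untreated libraries. mt-Nd5 had 1850.1, 1427, 1617 and 1673 CPM in doxycycline libraries, against 1312, 1214, 1038 and 1235 CPM in untreated libraries. The groups were separate for each of these 3 genes, with log2 changes of 0.54, 0.53 and 0.45. mt-Nd4l, the shortest of them, had 130.5, 99.0, 113 and 115 CPM in doxycycline libraries, against 90.7, 87.2, 64.8 and 85.7 CPM in untreated libraries. mt-Nd6, the only one on the other strand, had 435, 337, 371 and 401 CPM in doxycycline libraries, against 314, 289.7, 267 and 276 CPM in untreated libraries. Both were also separate between groups, at log2 changes of 0.48 and 0.43.

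In complex III the one mitochondrial gene, mt-Cytb (cytochrome b), had 3293, 2609.6, 2902 and 3357 CPM in doxycycline libraries, against 1959.9, 1956, 1645 and 1828 CPM in untreated libraries, with a log2 change of 0.71. In complex IV, mt-Co1 (the catalytic core subunit) had 11376, 10098, 11291 and 12823 CPM in doxycycline libraries, against 8176, 8255, 7638 and 8285 CPM in untreated libraries. The groups did not overlap, and the call for mt-Co1 was lost with library totals and without replicate 3, that is, with both libraries of that pair left out. With quantile normalization mt-Co1 was called as fallen, at -1.11 (adjusted p = 0.00017, limma). mt-Co2 had 5494, 4765, 4979 and 5256 CPM in doxycycline libraries, against 3341, 3169, 2982 and 3171 CPM in untreated libraries. mt-Co3 had 4431, 3898, 3992 and 4563 CPM in doxycycline libraries, against 2621, 2551, 2488 and 2539 CPM in untreated libraries. The log2 changes of mt-Co2 and mt-Co3 were 0.69 and 0.72, against 0.49 for mt-Co1. Of ATP synthase, mt-Atp6 (the proton channel subunit) had 3716, 3213, 3355 and 3549.9 CPM in doxycycline libraries, against 2562, 2541, 2184 and 2519.5 CPM in untreated libraries. mt-Atp8, its overlapping neighbour, had 506, 443, 439 and 429 CPM in doxycycline libraries, against 345, 355, 250.4 and 325 CPM in untreated libraries. Their log2 changes were 0.50 and 0.52, with standard errors of 0.09 and 0.11. The ribosomal RNAs mt-Rnr1 and mt-Rnr2, made from the same genome, did not pass, at 0.04 ± 0.25 and 0.10 ± 0.24. mt-Rnr1 had 105, 101, 89.8 and 227 CPM in doxycycline libraries, against 119, 117, 108 and 128 CPM in untreated libraries. mt-Rnr2 had 287, 280.3, 242 and 584 CPM in doxycycline libraries, against 326, 299, 260.0 and 339 CPM in untreated libraries. For both, doxycycline replicate 4 was the highest library and the other 3 doxycycline libraries lay below the untreated mean. Without doxycycline replicate 4 the log2 changes were -0.26 for mt-Rnr1, which then passed (adjusted p = 0.0147, limma), and -0.18 for mt-Rnr2, which did not (0.149). Under every alternative run, the calls held for 3 of the 12 genes, mt-Atp8, mt-Nd3 and mt-Nd6, and under quantile normalization the direction turned for mt-Co1, mt-Co2, mt-Co3, mt-Cytb, mt-Atp6, mt-Nd4 and mt-Nd5. Of the genes that turned, mt-Co1 and mt-Atp6 were then called as fallen.

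**Figure D2:**
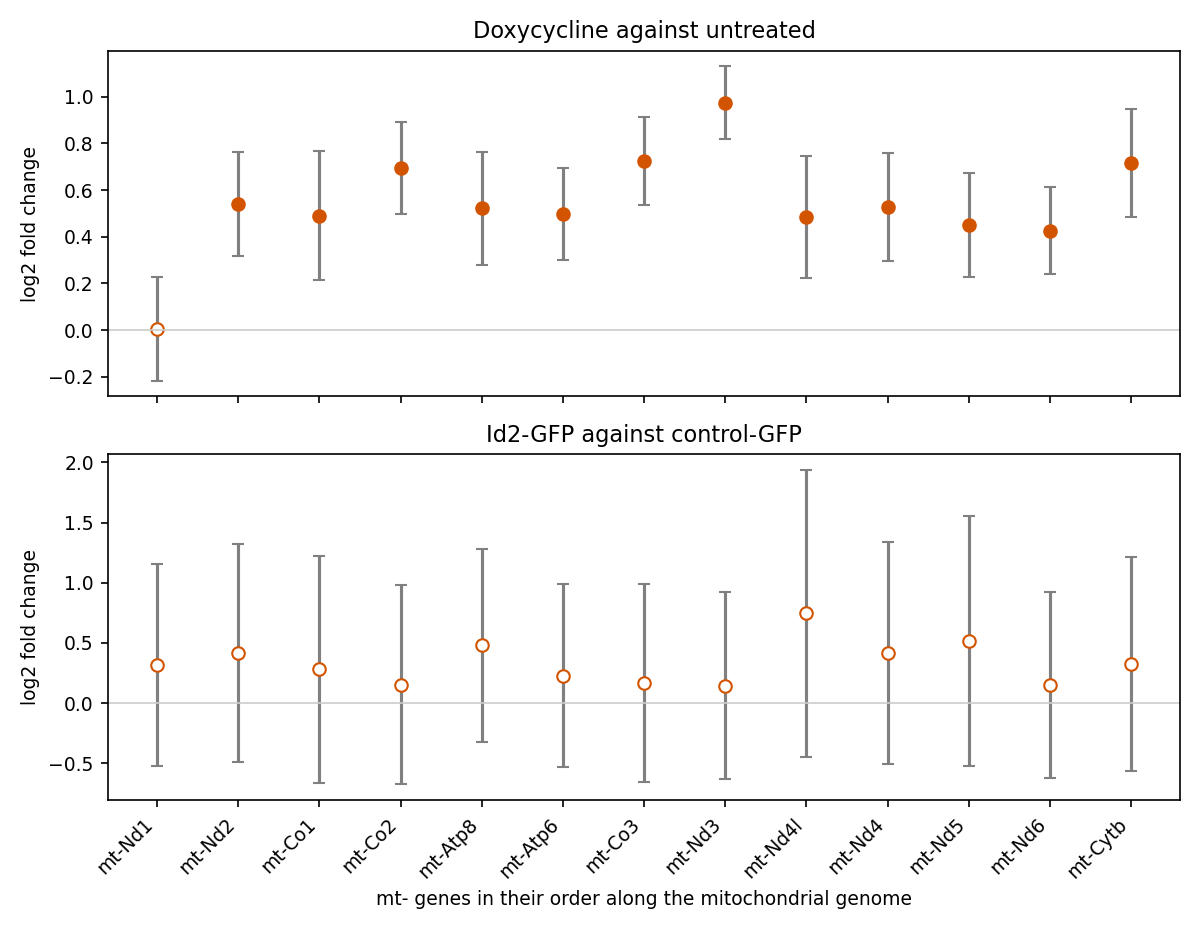
log2 fold change of the 13 mitochondrial genes in the order of the genome, doxycycline against untreated (top) and Id2-GFP against control-GFP (bottom). Points are fitted changes with 95% intervals, filled where the adjusted p is under 0.05. In the upper panel mt-Nd1 sits at 0.01 and mt-Nd3 at 0.97, and in the lower panel every interval includes 0.

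The nuclear genes were also counted by complex, beside 33.8% of all genes that fell and 31.3% that rose. ATP synthase had 11 of 18 genes fall (61.1%) and none rise, and complex IV had 6 of 13 fall (46.2%) and 1 rise. Complex III had 4 of 9 fall (44.4%) and none rise, and complex I had 11 of 36 fall (30.6%), a share near that of all genes, and 3 rise. Complex II, which has no mitochondrial subunit, had 2 of 4 genes rise and none fall. The medians were -0.18 for ATP synthase, -0.11 for complex IV, -0.15 for complex III, -0.06 for complex I and 0.04 for complex II, beside -0.03 for all genes. The genes were placed by symbol. Complex IV thus includes Cox7a2l, its gene that rose, and ATP synthase includes Atp5s and Atp5sl, which fell, and none of these is a core subunit. Ndufa4, which fell, is counted in complex I although it has since been placed in complex IV. Differences between complexes were not tested.

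**Figure D3:**
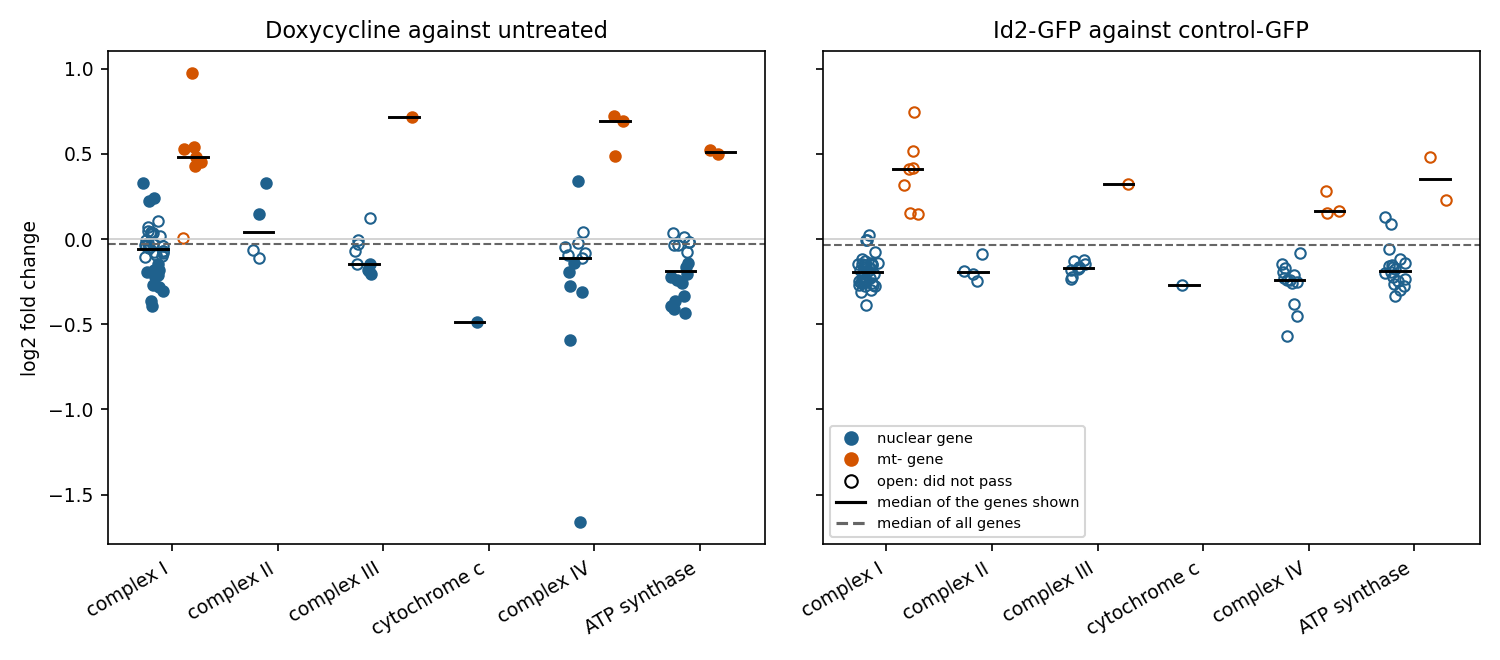
log2 fold change of each respiratory chain gene by complex, doxycycline against untreated (left) and Id2-GFP against control-GFP (right), nuclear genes in blue and mitochondrial genes in orange. Filled points passed the test, short bars are medians and the dashed line is the median of all genes of the table; on the left the orange medians lie at 0.48 to 0.71 and the blue ones at -0.49 to 0.04.

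Cytochrome c, the soluble electron carrier encoded by Cycs (chromosome 6:50562563-50566538, - strand), had 27.4, 26.6, 25.4 and 26.9 CPM in doxycycline libraries, against 40.3, 37.7, 36.2 and 35.0 CPM in untreated libraries. The groups did not overlap, and the log2 change was -0.49 ± 0.06 (SE; adjusted p = 5.1e-05, limma). In complex III, Cyc1 (cytochrome c1, chromosome 15:76343523-76346260, + strand) had 99.3, 96.2, 96.0 and 101 CPM in doxycycline libraries, against 116, 103, 111 and 117 CPM in untreated libraries. The doxycycline libraries were all lower, at a log2 change of -0.18 ± 0.05 (adjusted p = 0.00854, limma), although the call was lost without replicate 3. Uqcr11, Uqcrb and Uqcrc1 also fell, by 0.20, 0.18 and 0.15 on the log2 scale, and all 3 lost their calls when single pairs or libraries were left out. Uqcrfs1, the Rieske iron-sulphur protein, was at 0.12, and Uqcr10 at -0.15. By limma both passed in the fit with the replicate block (adjusted p = 0.0279 and 0.0442), and neither passed without it (0.0573 and 0.0682).

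Complex II, which oxidizes succinate, had 2 genes rise. Sdhb (chromosome 4:140961203-140979193, + strand), the iron-sulphur subunit, had 119, 115, 111 and 117 CPM in doxycycline libraries, against 90.6, 88.3, 95.1 and 93.8 CPM in untreated libraries. The groups were separate, and the change was 0.33 ± 0.04 (adjusted p = 9.9e-05, limma). Sdhc rose by 0.15, and Sdha and Sdhd, the flavoprotein and a membrane anchor, had values of -0.07 and -0.11 and did not pass. Sdhb reads per Sdha read were 0.452 to 0.514 in doxycycline libraries and 0.345 to 0.371 in untreated libraries. With library totals Sdhb lost its call and Sdhc turned to -0.091, and Sdhc also lost its call when single libraries were left out.

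In complex I, the 11 genes that fell included Ndufb2 (-0.39), Ndufa12 (-0.31) and Ndufb10 (-0.28), accessory subunits, and the core subunits Ndufv1, Ndufv2 and Ndufs1, which carry the NADH-oxidizing module (-0.18, -0.22 and -0.15). The call of Ndufv1 was lost without replicate 3 and that of Ndufs1 without replicate 1 or replicate 3. Ndufa4 (chromosome 6:11900292-11907497, - strand), a subunit since placed in complex IV, had 77.4, 72.3, 71.5 and 78.5 CPM in doxycycline libraries, against 105, 87.5, 98.8 and 94.6 CPM in untreated libraries. The groups were separate, at -0.36 ± 0.06 (adjusted p = 0.00061, limma). Ndufa8, Ndufa6 and Ndufa13 rose. Ndufa8 (chromosome 2:36036326-36049406, - strand) had 62.5, 60.4, 60.6 and 60.6 CPM in doxycycline libraries, against 52.6, 49.3, 51.5 and 53.4 CPM in untreated libraries, a change of 0.24 ± 0.04 (adjusted p = 0.00067, limma). Ndufa6 rose by 0.33, a call lost without replicate 1 and with library totals, mitochondrial genes counted in them or not, and Ndufa13 by 0.22, a call lost in 11 of 22 alternatives. With library totals Ndufa8 and Ndufa13 turned to -0.00080 and -0.018. Ndufa5 fell by 0.18, with an adjusted p of 0.0342, and did not pass with the replicate block (0.0549).

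The largest fitted change among the nuclear genes was in complex IV. Cox6b2 (chromosome 7:4751792-4753094, - strand), a testis isoform of Cox6b, had 0.536, 1.25, 0.507 and 0.411 CPM in doxycycline libraries, against 3.10, 3.23, 1.33 and 1.05 CPM in untreated libraries. The libraries overlapped and were low, between 0.411 and 3.23 CPM, so the log2 change of -1.66 ± 0.47 (adjusted p = 0.0111, limma) rests on few reads, and the call was lost without replicate 1. Genes were listed if above 1 CPM in at least 2 libraries. Every untreated library passed that mark, but in doxycycline only replicate 2 did. Cox6b2 was thus listed through the untreated libraries, where it was high, which favours a fall. It is counted among the 33 nuclear genes that fell. Cox6b1, the general isoform, had 128, 129, 122 and 126 CPM in doxycycline libraries, against 133, 120.4, 126 and 133 CPM in untreated libraries. It did not pass, at -0.02 ± 0.05. Cox7b (chromosome X:106015700-106022450, + strand) had 92.0, 89.2, 90.1 and 89.3 CPM in doxycycline libraries, against 117, 105, 109.9 and 115 CPM in untreated libraries, at -0.31 ± 0.04 (adjusted p = 0.00017, limma).

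The Cox7a paralogues did not move one way. Cox7a1, a muscle isoform, had 1.66, 2.68, 2.00 and 1.75 CPM in doxycycline libraries, against 3.15, 2.97, 2.80 and 3.09 CPM in untreated libraries, at -0.59 ± 0.17, a call lost without replicate 1 or replicate 4. Cox7a2, the general isoform, had 88.1, 92.2, 77.5 and 79.3 CPM in doxycycline libraries, against 99.8, 89.7, 92.4 and 103 CPM in untreated libraries, at -0.19 ± 0.07 with overlapping groups, a call lost in 8 of 22 alternatives. Cox7a2l (chromosome 17:83501918-83517330, - strand), which encodes a supercomplex assembly factor in place of a core subunit, had 189, 195, 168 and 156 CPM in doxycycline libraries, against 133, 146, 148 and 129.7 CPM in untreated libraries. Cox7a2l rose in each doxycycline library, at 0.34 ± 0.08 (adjusted p = 0.00388, limma), and lost its call with library totals. Cox4i1, a general isoform, had 281, 281, 263 and 261 CPM in doxycycline libraries, against 266, 257, 267 and 267 CPM in untreated libraries. Cox8a, another general isoform, had 181, 189, 182 and 159 CPM in doxycycline libraries, against 195, 187, 191 and 184 CPM in untreated libraries. The groups overlapped for both, at 0.04 ± 0.04 and -0.09 ± 0.06, and neither passed. Cox5a and Cox5b fell by 0.14 and 0.27, and the call of Cox5a was lost in 11 of 22 alternatives.

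Of ATP synthase, the catalytic subunit gene Atp5b (chromosome 10:128083273-128090391, + strand) had 839, 817, 834 and 833 CPM in doxycycline libraries, against 1132, 1042, 1101 and 1087 CPM in untreated libraries. All 4 doxycycline libraries were lower, at -0.39 ± 0.05 (adjusted p = 8.9e-05, limma). Its partner Atp5a1 fell by 0.26, while Atp5c1 and Atp5d of the same F1 portion had values of 0.01 and -0.02 and did not pass. Subunit c of the rotor is made from 3 paralogous genes. Atp5g1 had 63.9, 67.6, 60.2 and 67.9 CPM in doxycycline libraries, against 83.8, 73.6, 88.0 and 81.5 CPM in untreated libraries. Atp5g2 had 43.0, 55.4, 43.7 and 41.2 CPM in doxycycline libraries, against 60.3, 54.8, 62.2 and 57.6 CPM in untreated libraries. Atp5g3 had 167, 165, 168 and 181 CPM in doxycycline libraries, against 197, 182, 192 and 191 CPM in untreated libraries. All 3 fell, at -0.33 ± 0.06, -0.37 ± 0.09 and -0.16 ± 0.05, of which only Atp5g2 overlapped between groups, and the call of Atp5g3 was lost without replicate 1 or replicate 3. Such paralogues can share reads. Atp5s and Atp5sl, which are not core subunits, fell by 0.44 and 0.41. Without these 2 and Cox7a2l, 5 nuclear genes rose and 31 fell of 78.

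**Figure D4:**
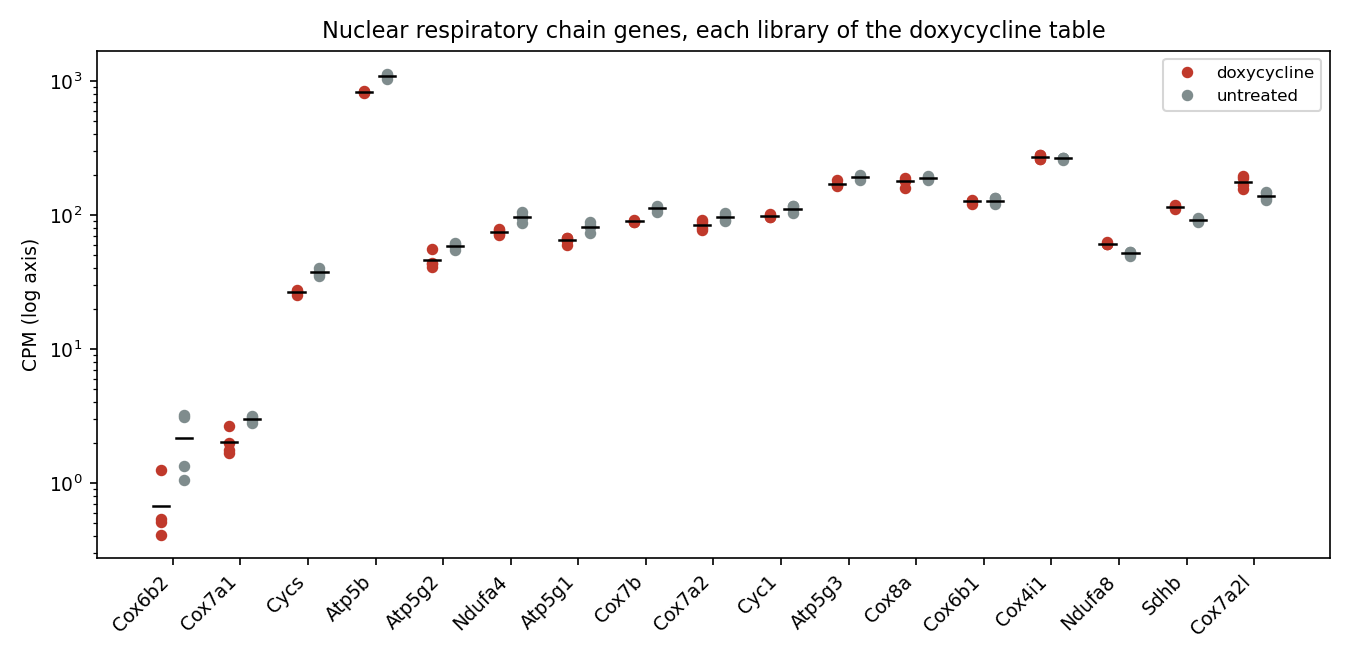
CPM on a log axis of 17 nuclear respiratory chain genes in each doxycycline (red) and untreated (grey) library, with group means as bars, ordered by log2 change. Cox6b2 lies lowest, at 0.411 to 1.25 CPM in doxycycline and 1.05 to 3.23 CPM in untreated libraries, and the genes on the right were higher in doxycycline.

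Promoters of nuclear respiratory chain genes are known to carry sites for the activators NRF1, GABPA and YY1. Promoter windows from RefSeq (GRCm38.p6), 250 bases before to 50 after the start, were found for 68 of the 81 nuclear genes. The NRF1 motif, searched as GCGC, any 1 base and TGCGC on both strands, was in 17 of 68 (25.0%), against 11.8% of 8988 genes of the doxycycline table and 5.19% of the 27025 genes of the sequence table. CCGGAAG (GABPA, both strands) was in 23.5%, against 20.9% and 9.93%, and ATGGCGG (YY1, both strands) in 16.2%, against 9.61% and 4.69%; no 2 of these motifs overlapped in these genes. NRF1 matches were in 7 of 29 genes that fell, 2 of 5 that rose and 8 of 34 that did not pass. The stretches below show genes from each class, with the matched bases in capitals: Atp5g2 at chr15:102671050-102671119 (- strand) and Atp5k at chr5:108434410-108434479 (- strand) fell, Ndufa8 at chr2:36049339-36049398 (- strand) rose, and Sdha at chr13:74350299-74350368 (- strand) did not pass.
Atp5g2: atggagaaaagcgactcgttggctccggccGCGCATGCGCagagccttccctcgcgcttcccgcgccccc
Atp5k: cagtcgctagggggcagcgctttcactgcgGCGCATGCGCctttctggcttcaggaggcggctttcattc
Ndufa8: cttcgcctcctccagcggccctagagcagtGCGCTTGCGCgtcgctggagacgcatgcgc
Sdha: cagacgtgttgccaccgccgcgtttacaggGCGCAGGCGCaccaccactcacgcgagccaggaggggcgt

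Genes that serve the respiratory chain, taken as lists chosen with results of these data known, were also counted. Their counts stand beside 33.8% of all genes that fell, 31.3% that rose and a median of -0.03 for all genes. With quantile normalization the medians were -0.49 for regulators, -0.32 for mitochondrial DNA expression and -0.24 for assembly. They were -0.21 for the tricarboxylic acid cycle with pyruvate entry and -0.24 for carriers, beside -0.10 for all genes. Of 12 nuclear regulators of mitochondrial genes, 11 fell (91.7%) and 1 rose (median -0.43), with Pprc1, Hcfc1 and Gabpb1 at -0.58 ± 0.04, -0.54 ± 0.05 and -0.57 ± 0.06. Pprc1 is a PGC-1-related coactivator, Hcfc1 a chromatin co-regulator and Gabpb1 a partner of GABPA. Of 28 genes for expression and upkeep of mitochondrial DNA, 18 fell (64.3%) and 2 rose (median -0.29). Peo1, the mitochondrial helicase, had 10.4, 9.76, 8.91 and 7.89 CPM in doxycycline libraries, against 17.9, 17.5, 19.3 and 16.8 CPM in untreated libraries, at -0.96 ± 0.10, and Tbrg4 and Elac2, which act on mitochondrial RNA, were at -0.56 ± 0.05 and -0.45 ± 0.05. Over the same libraries, 12 of the 13 mitochondrial protein genes rose.

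Of 42 assembly factors, 22 fell (52.4%) and 6 rose (median -0.18), among them Atpaf2 (-0.54 ± 0.05), an ATP synthase assembly factor, and Ndufaf4 and Ecsit (-0.68 ± 0.07 and -0.51 ± 0.07), complex I assembly factors. Of 19 genes of the tricarboxylic acid cycle and pyruvate entry 9 fell (47.4%) and none rose (median -0.09). The pyruvate entry genes in this list were Pdha1, Pdhb, Dlat, Pdhx and Pcx. Idh3a, a subunit of the NAD-dependent isocitrate dehydrogenase, had 54.8 ± 2.72 CPM in doxycycline and 103 ± 5.90 CPM in untreated (SD, n = 4 each), at -0.91 ± 0.06. Pcx (pyruvate carboxylase) and Suclg2 were at -1.09 ± 0.10 and -0.57 ± 0.07. Of 21 carriers, shuttles and quinone genes 9 fell (42.9%) and 3 rose (median -0.12). Etfb and Dhodh, which feed electrons to ubiquinone, were at -0.74 ± 0.05 and -0.73 ± 0.07, whereas Ucp2, an inner membrane carrier, rose by 0.82, with 983 ± 95.4 CPM in doxycycline and 556 ± 29.8 CPM in untreated (SD, n = 4 each). The 4 genes that the rule left out and the table held, among them Cox6a2 and both ribosomal RNAs, did not pass in the fit of all libraries.

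The second comparison asks how the same genes respond to Id2, an inhibitor of helix-loop-helix transcription factors. In this experiment 2 libraries stood apart on the respiratory chain genes. In Id2-GFP replicate 2, reads on the mitochondrial genes made up 7.09%, against 3.15 to 4.35% in the other libraries, and it was highest of the 6 for all 13 mitochondrial genes. In control-GFP replicate 3, reads on the nuclear genes made up 1.18%, against 0.697 to 0.908% elsewhere, and it was highest for 78 of the 81 nuclear genes. It also had 8.45% of reads on ribosomal protein genes, against 3.32 to 5.18%, and the control-GFP range of summed erythroid markers, 0.277 to 15.8 CPM, was wider than that of Id2-GFP, 0.766 to 2.29 CPM; their part was not tested. Mitochondrial reads per nuclear read were 3.63, 9.34 and 5.59 in Id2-GFP libraries, against 4.59, 6.01 and 2.67 in control-GFP libraries.

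**Figure D5:**
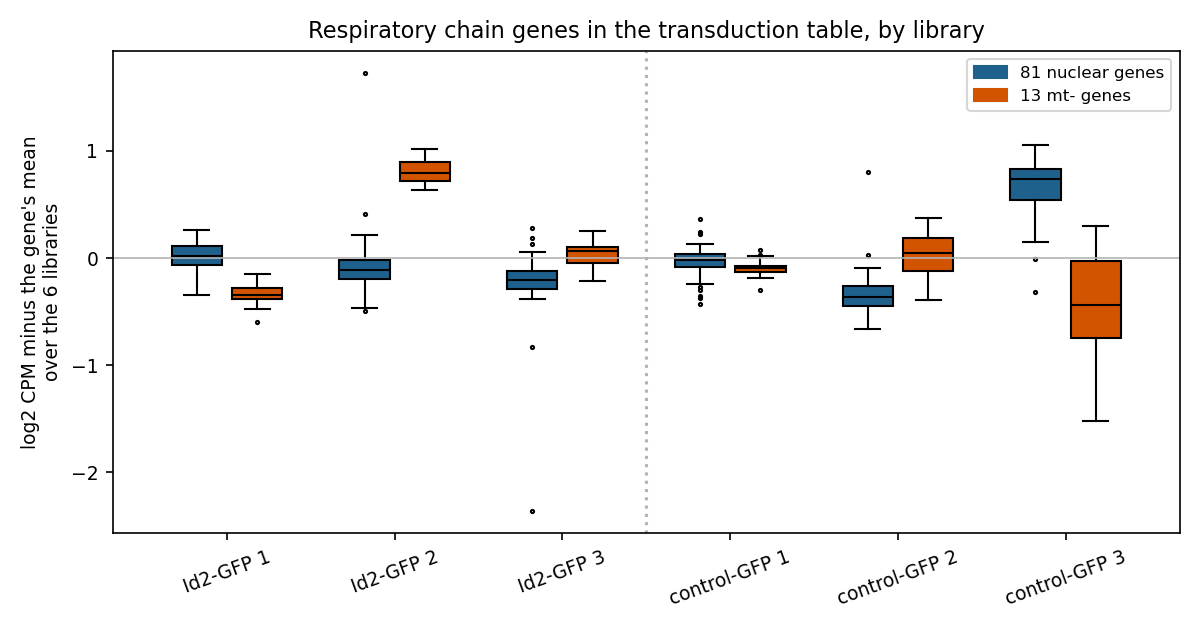
log2 CPM minus the mean of the 6 libraries, for 81 nuclear (blue) and 13 mitochondrial (orange) genes, in each library of the transduction table. Boxes show quartiles with the median line, whiskers reach 1.5 times the box and dots lie beyond. Mitochondrial genes are highest in Id2-GFP replicate 2 (median 0.79) and nuclear genes in control-GFP replicate 3 (median 0.74).

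None of the 94 genes passed the test, and none had an unadjusted p under 0.05 (limma; voom weights gave the same count of 0). Over the table, 2 of 14563 genes (0.0137%) rose and 2.45% had an unadjusted p under 0.05; with the replicate block 16 rose and 19 fell. Id2 was among the genes that rose. The adjusted p was 0.998 for every one of the 94 genes. The nuclear median was -0.19 and the mitochondrial 0.32, beside -0.03 for all genes, with 78 of 81 nuclear values negative and 13 of 13 mitochondrial values positive. Without Id2-GFP replicate 2 the mitochondrial median was -0.03, and without control-GFP replicate 3 the nuclear median was 0.08, so both medians turn with 1 library. All 94 genes overlapped between the groups, while 3.18% of all genes were higher in every Id2-GFP library and 3.77% lower.

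The mitochondrial genes gave these values. mt-Co1 had 10180.2, 22009 and 13879 CPM in Id2-GFP libraries, against 12120.4, 13104 and 10942 CPM in control-GFP libraries. mt-Co2 had 3282, 7349.5 and 4317 CPM in Id2-GFP libraries, against 3948, 3968 and 4843 CPM in control-GFP libraries. mt-Co3 had 3098, 6782 and 4486 CPM in Id2-GFP libraries, against 3768, 3630.0 and 4878 CPM in control-GFP libraries. For these complex IV genes Id2-GFP replicate 2 was the highest library, and the intervals ran past 0 on both sides, as for mt-Co1 at 0.28 (95% interval -0.66 to 1.22). mt-Cytb had 2689.5, 5852 and 2923 CPM in Id2-GFP libraries, against 3235, 3462 and 2091 CPM in control-GFP libraries. mt-Atp6 had 3966, 7818 and 5256 CPM in Id2-GFP libraries, against 4802, 4634 and 4547 CPM in control-GFP libraries. mt-Atp8 had 955, 1840.5 and 1310.3 CPM in Id2-GFP libraries, against 1179.8, 1151 and 627 CPM in control-GFP libraries. In mt-Atp8 and mt-Cytb control-GFP replicate 3 was the lowest library.

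Among the complex I genes, mt-Nd4l had 181, 404 and 238 CPM in Id2-GFP libraries, against 204, 259 and 69.8 CPM in control-GFP libraries. Its fitted log2 change, 0.75 (95% interval -0.44 to 1.94), was the largest of the 94 genes. mt-Nd1 had 2420.3, 5420.0 and 2687 CPM in Id2-GFP libraries, against 2755, 3041 and 2170.0 CPM in control-GFP libraries. mt-Nd2 had 1049.8, 2615 and 1325 CPM in Id2-GFP libraries, against 1219, 1521 and 832 CPM in control-GFP libraries. mt-Nd3 had 229.6, 508 and 253 CPM in Id2-GFP libraries, against 267, 224 and 362 CPM in control-GFP libraries. The reads of mt-Nd3 per read of mt-Nd1 were 0.0936 to 0.0949 in Id2-GFP and 0.0738 to 0.167 in control-GFP libraries. mt-Nd4 had 2109, 4930.4 and 2770.1 CPM in Id2-GFP libraries, against 2511, 3051 and 1583 CPM in control-GFP libraries. mt-Nd5 had 1619, 3897 and 2228 CPM in Id2-GFP libraries, against 1887, 2557 and 997 CPM in control-GFP libraries. mt-Nd6 had 422, 1053 and 685 CPM in Id2-GFP libraries, against 519.6, 682 and 625 CPM in control-GFP libraries. Again Id2-GFP replicate 2 was the highest of the 6 libraries.

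On the nuclear side, Cycs had 104, 67.8 and 92.4 CPM in Id2-GFP libraries, against 94.5, 73.9 and 164 CPM in control-GFP libraries. Cyc1 had 129.9, 97.0 and 91.1 CPM in Id2-GFP libraries, against 122, 93.4 and 145 CPM in control-GFP libraries. Sdhb had 89.5, 85.6 and 83.6 CPM in Id2-GFP libraries, against 94.7, 74.5 and 153 CPM in control-GFP libraries. In each of these control-GFP replicate 3 was the highest library, and the changes were -0.27, -0.17 and -0.25. Ndufa4 had 98.0, 67.0 and 68.9 CPM in Id2-GFP libraries, against 104, 65.9 and 148 CPM in control-GFP libraries. Ndufa8 had 54.4, 49.5 and 42.7 CPM in Id2-GFP libraries, against 51.4, 44.5 and 84.9 CPM in control-GFP libraries. The fitted log2 change of Ndufa4 was -0.39 (95% interval -1.11 to 0.34). Atp5b had 1150.0, 778 and 917 CPM in Id2-GFP libraries, against 1018, 855 and 1269 CPM in control-GFP libraries. Atp5g1 had 90.2, 59.4 and 65.0 CPM in Id2-GFP libraries, against 81.7, 56.9 and 119 CPM in control-GFP libraries. Atp5g2 had 81.8, 74.3 and 67.2 CPM in Id2-GFP libraries, against 78.7, 65.4 and 115 CPM in control-GFP libraries. Atp5g3, at -0.20, likewise overlapped between groups, with 221, 153 and 168 CPM in Id2-GFP libraries, against 205, 143 and 292 CPM in control-GFP libraries.

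In complex IV, Cox4i1 had 270.1, 286 and 259.8 CPM in Id2-GFP libraries, against 252, 219 and 517 CPM in control-GFP libraries. Cox6b1 had 127, 128 and 105 CPM in Id2-GFP libraries, against 129.9, 93.7 and 209.5 CPM in control-GFP libraries. Cox7b had 101, 85.3 and 91.1 CPM in Id2-GFP libraries, against 99.8, 73.9 and 180.2 CPM in control-GFP libraries. The control-GFP replicate 3 value exceeded the other 5 in all 3 genes. Cox7a1 had 2.71, 3.52 and 1.49 CPM in Id2-GFP libraries, against 2.07, 2.25 and 5.17 CPM in control-GFP libraries. Cox7a2 had 95.7, 86.9 and 74.5 CPM in Id2-GFP libraries, against 96.0, 72.0 and 147 CPM in control-GFP libraries. Cox7a2l had 145, 188 and 209 CPM in Id2-GFP libraries, against 142, 148 and 319.6 CPM in control-GFP libraries. The same library was again highest for the Cox7a genes. Cox8a had 184, 157 and 142 CPM in Id2-GFP libraries, against 177, 142 and 268 CPM in control-GFP libraries. Cox6b2 had 1.08, 4.15 and 0.243 CPM in Id2-GFP libraries, against 1.61, 2.18 and 1.00 CPM in control-GFP libraries. Cox6b2 was an exception in its order, with its highest value in Id2-GFP replicate 2, and its interval was the widest, -0.57 (95% interval -2.80 to 1.66).

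The median standard error was 0.29 for nuclear and 0.36 for mitochondrial genes, against 0.06 and 0.10 in the doxycycline comparison. The 6 lists of related genes gave no call and no unadjusted p under 0.05.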

How the data were processed

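RNA from 14 mouse leukaemia cell samples was sequenced from TruSeq V2 libraries, per the labels' protocols. CASAVA 1.8.2, TopHat2, HTSeq, limma and the mm10 build are named in the submitters' processing notes. The deposited values are log2 CPM per gene, made before deposit with the authors' scale factors (0.891 to 0.951 in doxycycline, 1.07 to 1.10 in untreated, 0.913 to 1.03 in the transduction libraries). They came from whole reads plus 0.5, since all values gave whole reads within 0.01 of a read. The 2 tables were normalized apart, so no level is compared across them. Of the doxycycline table's 13419 rows, 13 repeated another. Each table keeps genes above 1 CPM in at least 2 libraries, tested on the recovered reads, and all 94 members passed; those with fewest reads had 8 and 3.

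Each table was fitted on its deposited values with limma 3.58.1 (R 4.3.3), group only, with a variance trend, and p-values were adjusted by Benjamini-Hochberg over the whole table. The fit was also run on simulated counts with a fixed dispersion and no pairing. These settings differ from the data, so that run cannot show how the fit performs on them. A fold change is on the log2 scale with the 0.5 read offset. CPM shown is the antilog of the deposited value. Shares of reads come from the recovered reads. Nothing says that replicates came from separate animals, so p-values measure the spread between these samples. The transduction titles give shared replicate numbers. In the doxycycline experiment a treated and an untreated title share a label, whose first part is TRIMA2 for replicates 1 to 3 and TRIMA1 for replicate 4, and the numbers follow those labels. A second part of the label differs between replicates 1 to 3 and is the same in replicates 3 and 4. What it stands for is not said. Same-numbered libraries deviated together (correlations 0.454 to 0.552 over 4 pairs and 0.472 to 0.581 over 3 pairs, above the minimum of 0.1), so the numbers pair the libraries. Replicates differed by more than sampling noise, with a chi-square per degree of freedom of 10.7 or more.

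Values in every library are given for the mitochondrial genes, Cycs, Cyc1, the paralogue groups and, in each complex, the nuclear gene with the smallest p in each direction; of each list up to 3 genes with the smallest p are named. The members and lists were chosen with earlier results of these data known. Positions are from GENCODE M21 (GRCm38). Alternatives tried were the replicate block, leaving out libraries and pairs, 4 scalings, an offset of 2 reads, floors of 2 and 4 mean log2 CPM, no variance trend, voom weights, and fewer members.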

Additional observations from a re-analysis of the deposited data

Results flagged for a closer look

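Within the doxycycline and untreated groups of 4 libraries, 66 checks for a library far from the other 3 were made, and 5 were past the 95% critical value of Dixon's test; chance gives about 1 in 20. Ndufa8 stood at 62.5 CPM in doxycycline replicate 1, against 60.4 to 60.6 CPM in the other doxycycline libraries. Untreated replicate 3 was low for mt-Atp6 (2184 CPM), mt-Co1 (7638 CPM) and mt-Nd4l (64.8 CPM), and it had the lowest value of the 8 libraries for all 13 mitochondrial genes. Cox4i1 was low in untreated replicate 2, at 257 CPM.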

How the results depend on the processing

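With the replicate block, the mitochondrial count kept 12 that rose, and the nuclear counts stayed within 1.5 times of 6 and 33. The calls of Ndufa5, Uqcrfs1 and Uqcr10 changed with the block, as given above, and it changed no other call among the 94 genes. Leaving out libraries or pairs, 20 to 35 nuclear genes fell, 4 to 6 rose, and 11 or 12 mitochondrial genes rose; the lowest nuclear count, 20, came without replicate 3. With library totals 0 nuclear genes rose, 71 fell, and 1 mitochondrial gene fell; with the mitochondrial genes left out of the totals the nuclear counts were again 0 and 71. The median of all genes was then -0.27 and -0.26, and 28.1% and 28.7% of all calls rose, against 48.1% with the authors' scaling. Of all 13406 genes 6912 and 6827 fell, against 4535. With quantile normalization 4 mitochondrial genes rose and 3 fell, and 3682 of all genes rose and 5227 fell. With median-of-ratios scaling the counts stayed close, at 7 nuclear genes that rose, 30 that fell and 12 mitochondrial genes that rose. Library totals shift every gene of a library by the same factor. Quantile normalization gives every library the same set of values, assigned by rank. The directions of these log2 changes turned with library totals: Atp5c1 -0.23, Cox4i1 -0.20, Ndufa1 -0.20, Ndufa13 -0.018, Ndufa2 -0.20, Ndufa3 -0.22, Ndufa8 -0.00080, Ndufb4 -0.21, Ndufb8 -0.19, Sdhc -0.091 and mt-Nd1 -0.23. Without the mitochondrial genes in the totals they were Atp5c1 -0.22, Cox4i1 -0.19, Ndufa1 -0.19, Ndufa13 -0.0094, Ndufa2 -0.19, Ndufa3 -0.21, Ndufb4 -0.20, Ndufb8 -0.18 and Sdhc -0.082. With quantile normalization they were Atp5c1 -0.11, mt-Atp6 -0.36, mt-Co1 -1.11, mt-Co2 -0.41, mt-Co3 -0.22, mt-Cytb -0.088, mt-Nd1 -0.57, mt-Nd4 -0.017 and mt-Nd5 -0.057. Under every alternative 15 of the 33 nuclear genes that fell kept their call, as did 3 of the 12 mitochondrial genes and none of the 6 nuclear genes that rose. The Id2-GFP comparison had 0 calls among the 94 genes under each alternative run. Without mt-Atp8 and mt-Nd4l, mitochondrial reads per nuclear read averaged 4.37 in doxycycline and 2.74 in untreated. Depth ran from 14051150 to 25959766 reads, and Cox6b2 had 8 to 74 reads in the doxycycline experiment.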
